A study of Mus musculus with 1298 samples.

Results

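The matrix proteases and their inhibitors were examined as 69 genes, taken as every gene whose symbol is Mmp, Timp, Adam, Adamts or Adamtsl followed by a number, out of 26724 genes listed in 3 count files, of 10x single cells, of Smart-seq2 single cells and of bulk RNA. They comprised 20 Mmp, 4 Timp, 21 Adam, 19 Adamts and 5 Adamtsl genes. Of these, 60 were listed for 10x, 64 for Smart-seq2 and 69 for bulk RNA, and 57 were listed on both single-cell platforms.

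All cells came from Pax7CreER:R26R-stop-EYFP mouse embryos, in which tamoxifen (TMX, 75 µg/g body weight at E9.5) switches on YFP in cells that express Pax7 and in their progeny. Embryos freed of head, limbs and viscera were pooled, YFP+ cells were sorted on each of 3 embryonic days, the earliest E12.5, the middle one E14.5 and the last E16.5, and the study asked how this lineage divides between muscle, dermis and brown fat. Single cells were profiled on 10x (1 library per day) and with Smart-seq2 on the same days. Bulk RNA was taken from 18 libraries in 4 groups. They were sorted E16.5 Pdgfra+ cells (4 libraries, of the Pdgfra+/Thy1+ and Pdgfra+/Thy1- sorts), sorted E16.5 Pdgfra-/Cd36+ cells (2 libraries, called Cd36+ here), and E14.5 Pdgfra+ cells of both Thy1 sorts grown either in DMEM with serum (6 libraries) or in ADM, an adipogenic differentiation medium (6 libraries). The days of these libraries are those of the labels. The study's methods also place the uncultured cells at E16.5, but its results text speaks of E14.5 for the sorted Pdgfra+/Thy1- cells, and this was not settled here. The headers of the bulk table did not show which Pdgfra+ library belonged to which Thy1 sort, so the sorts were kept together. Sorted libraries were technical duplicates and cultured libraries triplicate wells, so bulk p-values do not measure the spread between litters. Each Pdgfra+ group held both Thy1 sorts, so the spread behind bulk p-values also takes in differences between sorts. A member not called in bulk can therefore still differ within each sort. All tissue had been digested with Collagenase II, with Dispase added from E14.5, before RNA was taken.

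Matrix metalloproteinases (Mmp genes) are zinc proteases that cut collagens and other matrix proteins, some as secreted enzymes and some, the membrane-type members, at the cell surface, and tissue inhibitors of metalloproteinases (Timp genes) bind and block them. Adam genes encode membrane proteins, several of which release growth factors and receptors from the cell surface. Adamts genes encode secreted enzymes that trim procollagens or cut large proteoglycans, and Adamtsl genes encode related matrix proteins without protease activity. In embryonic mesenchyme these genes are known for remodelling connective tissue.

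Positions from GENCODE vM21 (GRCm38) placed 7 Mmp members side by side on chromosome 9 between 7272514 and 7674979, namely Mmp13, Mmp12, Mmp3, Mmp10, Mmp8, Mmp27 and Mmp20. In this annotation 17 members overlapped another protein-coding gene. Timp1, Timp3 and Timp4 lie inside the synapsin genes Syn1, Syn3 and Syn2 on the opposite strand, and Mmp11 overlaps Chchd10, a brown adipocyte marker, on the opposite strand. Without strand, reads of such neighbours cannot be told apart. RefSeq promoters of 300 bases (250 before the start to 50 after it, GRCm38.p6) were matched for 43 members. The 5 shown here were chosen after levels and motif matches were seen, to set genes of mesenchyme, of Cd36+ cells and of the chromosome 9 stretch side by side. Timp3 (chr10:86300162-86300461, + strand) encodes an inhibitor held in the matrix, Mmp14 (chr14:54431348-54431647, + strand) a membrane-type protease that activates Mmp2, Mmp28 (chr11:83462991-83463290, - strand) epilysin, Mmp3 (chr9:7445572-7445871, + strand) stromelysin-1 and Mmp13 (chr9:7272264-7272563, + strand) collagenase-3. Each is given 5′ to 3′ along its gene, with capitals marking matches on either strand to TGANTCA (an AP-1 motif), TATAAA or GGGCGG.
Timp3: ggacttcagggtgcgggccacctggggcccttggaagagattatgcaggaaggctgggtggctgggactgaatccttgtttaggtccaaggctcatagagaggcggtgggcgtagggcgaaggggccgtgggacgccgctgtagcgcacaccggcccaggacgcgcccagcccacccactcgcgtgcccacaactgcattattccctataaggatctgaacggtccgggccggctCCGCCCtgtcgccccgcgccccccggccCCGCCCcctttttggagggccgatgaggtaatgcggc
Mmp14: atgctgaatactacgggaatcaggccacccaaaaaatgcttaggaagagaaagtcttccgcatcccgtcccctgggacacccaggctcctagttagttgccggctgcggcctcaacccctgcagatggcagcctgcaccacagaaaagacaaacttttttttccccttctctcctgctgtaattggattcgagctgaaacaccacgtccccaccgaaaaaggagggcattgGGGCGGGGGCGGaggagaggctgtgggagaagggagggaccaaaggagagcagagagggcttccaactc
Mmp28: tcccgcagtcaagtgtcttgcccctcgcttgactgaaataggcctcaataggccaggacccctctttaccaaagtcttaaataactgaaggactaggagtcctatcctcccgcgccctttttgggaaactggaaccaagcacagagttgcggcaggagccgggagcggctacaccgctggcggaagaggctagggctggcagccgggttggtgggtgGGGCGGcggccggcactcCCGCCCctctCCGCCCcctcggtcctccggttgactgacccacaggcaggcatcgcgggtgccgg
Mmp3: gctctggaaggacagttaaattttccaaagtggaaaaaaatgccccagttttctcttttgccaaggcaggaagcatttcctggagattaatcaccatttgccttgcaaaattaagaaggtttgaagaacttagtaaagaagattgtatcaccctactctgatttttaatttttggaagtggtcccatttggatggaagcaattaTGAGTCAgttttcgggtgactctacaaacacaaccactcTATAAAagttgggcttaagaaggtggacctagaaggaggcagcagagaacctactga
Mmp13: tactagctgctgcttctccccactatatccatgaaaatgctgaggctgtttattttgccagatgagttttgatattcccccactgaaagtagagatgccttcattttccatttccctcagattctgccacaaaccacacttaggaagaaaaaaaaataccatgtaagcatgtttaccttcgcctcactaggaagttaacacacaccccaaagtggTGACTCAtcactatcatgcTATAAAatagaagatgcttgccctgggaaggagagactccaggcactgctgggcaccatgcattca

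The Timp3 and Mmp14 windows each held 2 GGGCGG matches and the Mmp28 window 3, while the Mmp3 and Mmp13 windows each held 1 AP-1 match and 1 TATAAA match. GC content was 67% for Timp3, 56% for Mmp14, 63.7% for Mmp28, 40% for Mmp3 and 43.7% for Mmp13, beside a median of 52.7% over all promoters of this length. Of 5 motifs searched on both strands, GGGCGG was in 57.4% of member promoters and 35.7% of all promoters, TATAAA in 19.1% and 13.6%, TGANTCA in 14.9% and 7.81%, CAGCTG in 23.4% and 16.3%, and AGGTCA in 14.9% and 16.3%. These shares describe the letters and were not tested. Genes of the chromosome 9 stretch were scarce. Mmp27 reached at most 7.17 CPM (counts scaled to a common library total), Mmp3 at most 4.46 CPM and Mmp13 at most 0.692 CPM in any bulk library, and Mmp13 had 3 UMIs over all 10x classes.

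After filtering, 3852 of 3916 deposited cells remained, 2921 from 10x and 931 from Smart-seq2. Median UMIs per 10x cell were 2185, 5930 and 1607.5 in the libraries of the 3 days, in order, and 3 barcodes occurred in more than 1 10x library. Bulk libraries held 3390851 to 11758559 counts in ADM, 19480903 to 35332908 in DMEM and 17320736 to 32947290 among the sorted libraries. Clustering without the members among the variable genes gave 16 clusters, named from marker lists as early progenitor-like (EP, 10.6% of cells), late progenitor-like (LP, 21.1%), dermal fibroblast-like (DF, 14%), brown adipocyte-like (BA, 4.52%), early muscle-like (EM, 17.4%), late muscle-like (LM, 6.75%), neuron-like (N, 16.6%), neural progenitor-like (NP, 7.50%) and pericyte-like (PE, 1.48%). Some limits go with these names. The EP-like cluster had 4 of 8 EP markers detected, with a mean z of 0.58 on them beside 0.6 on chondrocyte genes. On 10x these 8 genes summed to 891.2 CPM in EP-like cells. They summed to 557.3 and 535.1 CPM in LP-like and to 1330 and 1900 CPM in DF-like cells of E14.5 and E16.5. The largest LP-like cluster scored higher on tendon genes than on the LP markers (mean z 2.37 against 1.53), a DF-like cluster had 2 LP markers beside 2 DF markers among its leading genes, and the limit on mitochondrial counts removed some brown adipocyte-like cells. Counts were summed per class and pool, a pool being 1 platform on 1 day, and these sums were tested.

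Across the 10x classes, Timp and Mmp genes summed highest in LP-like and DF-like cells among the classes of over 30 cells, while Adam genes were spread more evenly. The sums below pool the days, whose shares differ between classes. The 4 Timp genes summed to 511.6 CPM (UMIs scaled to the class total) in LP-like cells (95% exact Poisson interval 485.5 to 538.7, counting error only), 297.7 in DF-like (267.8 to 330.01), 283.03 in EP-like (239.3 to 332.5), 152.4 in EM-like, 131.9 in NP-like, 54.3 in N-like, 50.3 in LM-like and 47.6 in BA-like cells. PE-like cells reached 513.8 CPM, but from 30 cells, with an interval of 341.4 to 742.6. Mmp genes summed to 388.05 in LP-like and 358.6 in DF-like cells, beside 189.3 in EP-like, 100.6 in N-like, 73.4 in BA-like, 73 in EM-like and 25.7 in LM-like cells. Adam genes summed to 210.8 in LP-like, 163.7 in DF-like, 152.6 in N-like, 139.6 in EP-like and 134.9 in BA-like cells, and to 348.6 (209.9 to 544.4) in PE-like cells. Adamts genes summed to 227.3 in DF-like and 227.2 CPM in LP-like cells of E14.5 and to 433.1 (374.7 to 497.97) and 369.04 (310.4 to 435.5) in those of E16.5, with overlapping intervals on both days, and to 458.7 (296.9 to 677.2) in PE-like cells of E16.5. No Adamtsl UMI was found in BA-like cells, which allows up to 7.32 CPM.

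**Figure D1:**
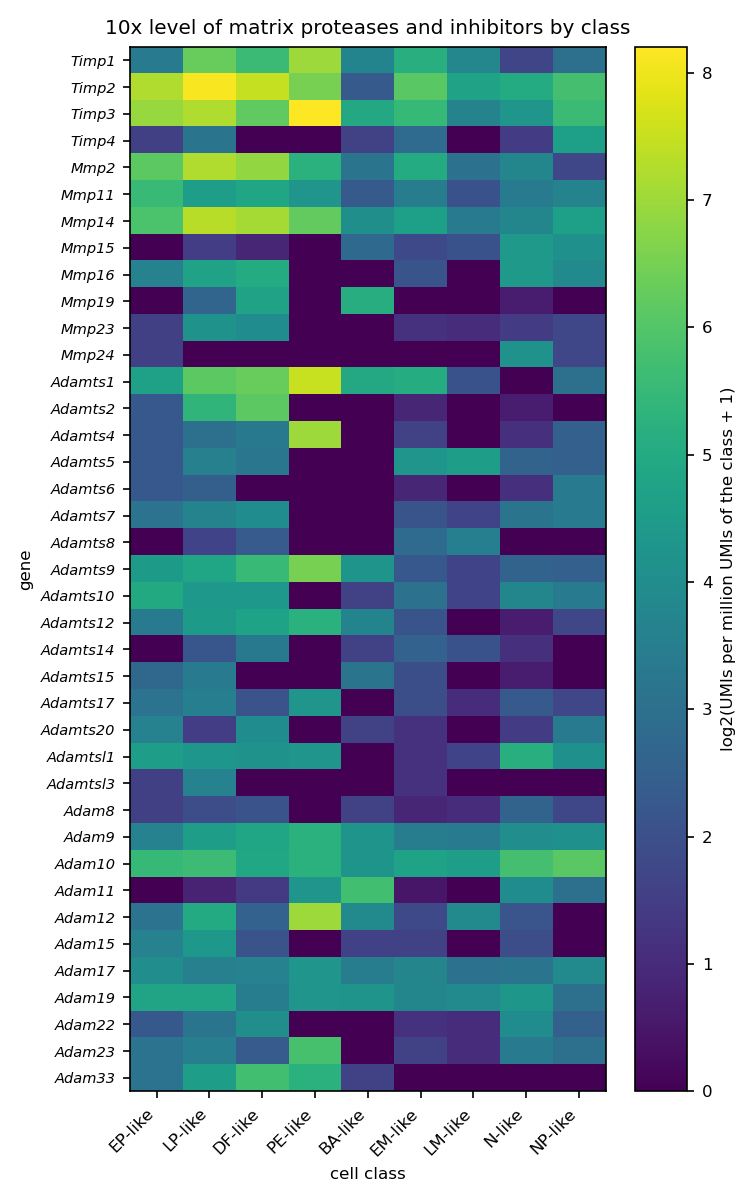
Levels of the 39 members with at least 20 UMIs (rows) in the 9 classes (columns), as log2(CPM + 1) over all 10x days. Bright colours are high levels. Timp2, Timp3, Mmp2 and Mmp14 are bright across EP-like, LP-like and DF-like cells, while Mmp24 stands out in N-like and Adam11 in BA-like cells.

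Of the 60 members listed for 10x, 39 had at least 20 UMIs, 21 had fewer, and Adam21 was the only member with 0 UMIs. Their highest level was in PE-like cells for 11 of the 39, in LP-like and DF-like cells for 7 each, in N-like cells for 4, in EP-like and NP-like cells for 3 each and in BA-like and LM-like cells for 2 each. EM-like cells led for 0. The PE-like share rests on few UMIs. Since 10x counts transcript ends, these levels carry no gene length and can be set against each other.

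Among the inhibitors, Timp2, which takes part in Mmp2 activation by Mmp14 as well as in inhibition, was the most abundant member in EP-like (149.2 CPM), LP-like (275.9) and DF-like cells (178.5), with intervals of 117.9 to 186.2, 256.8 to 296.03 and 155.5 to 203.8. It had 67.2 in EM-like, 54.2 in NP-like, 32 in N-like, 25.7 in LM-like and 3.97 in BA-like cells. Timp3 led in PE-like cells at 293.6 CPM (16 UMIs, 167.8 to 476.8), followed by 149.9 in LP-like and 122.4 in EP-like cells, whose intervals of 135.9 to 164.9 and 94.3 to 156.3 overlapped. Timp1, a secreted inhibitor, was 78 CPM in LP-like, 46.9 in DF-like, 34.4 in EM-like and 9.56 in EP-like cells. Timp4 was scarce, at its highest in NP-like cells with 23.6 from 10 UMIs.

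The proteases showed the same mesenchymal classes at the top. Mmp14 had 157.4 and 137.3 CPM in LP-like and DF-like cells (143.03 to 172.7 and 117.3 to 159.8), and Mmp2, gelatinase A, had 149.5 and 115.1 (135.6 to 164.5 and 96.9 to 135.9). Both pairs of intervals overlapped, those of Mmp2 only at their bounds. Adamts2, a procollagen N-proteinase, and Adam33 were highest in DF-like cells at 69.9 and 51.8, beside 39.9 and 22.8 in LP-like cells. Adamtsl3 had 11.4 in LP-like cells and 1.91 in the next class.

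Outside the mesenchymal classes the leading members differed. Adam10, a sheddase that cuts Notch and many other surface proteins, led in NP-like (68.3) and N-like cells (54.3), where the intervals of 45.8 to 98.1 and 43.9 to 66.4 overlapped. Its level was close to these in LP-like (48.1) and EP-like cells (44), where other members led. Mmp24, a membrane-type protease of neurons, had 17.1 CPM in N-like cells from 30 UMIs and 2.36 in the next class. Adamtsl1 also led in N-like cells, at 35.4. LM-like cells had Adamts5, an aggrecan-cutting enzyme, at 22.5, close to 18.5 in EM-like cells.

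**Figure D2:**
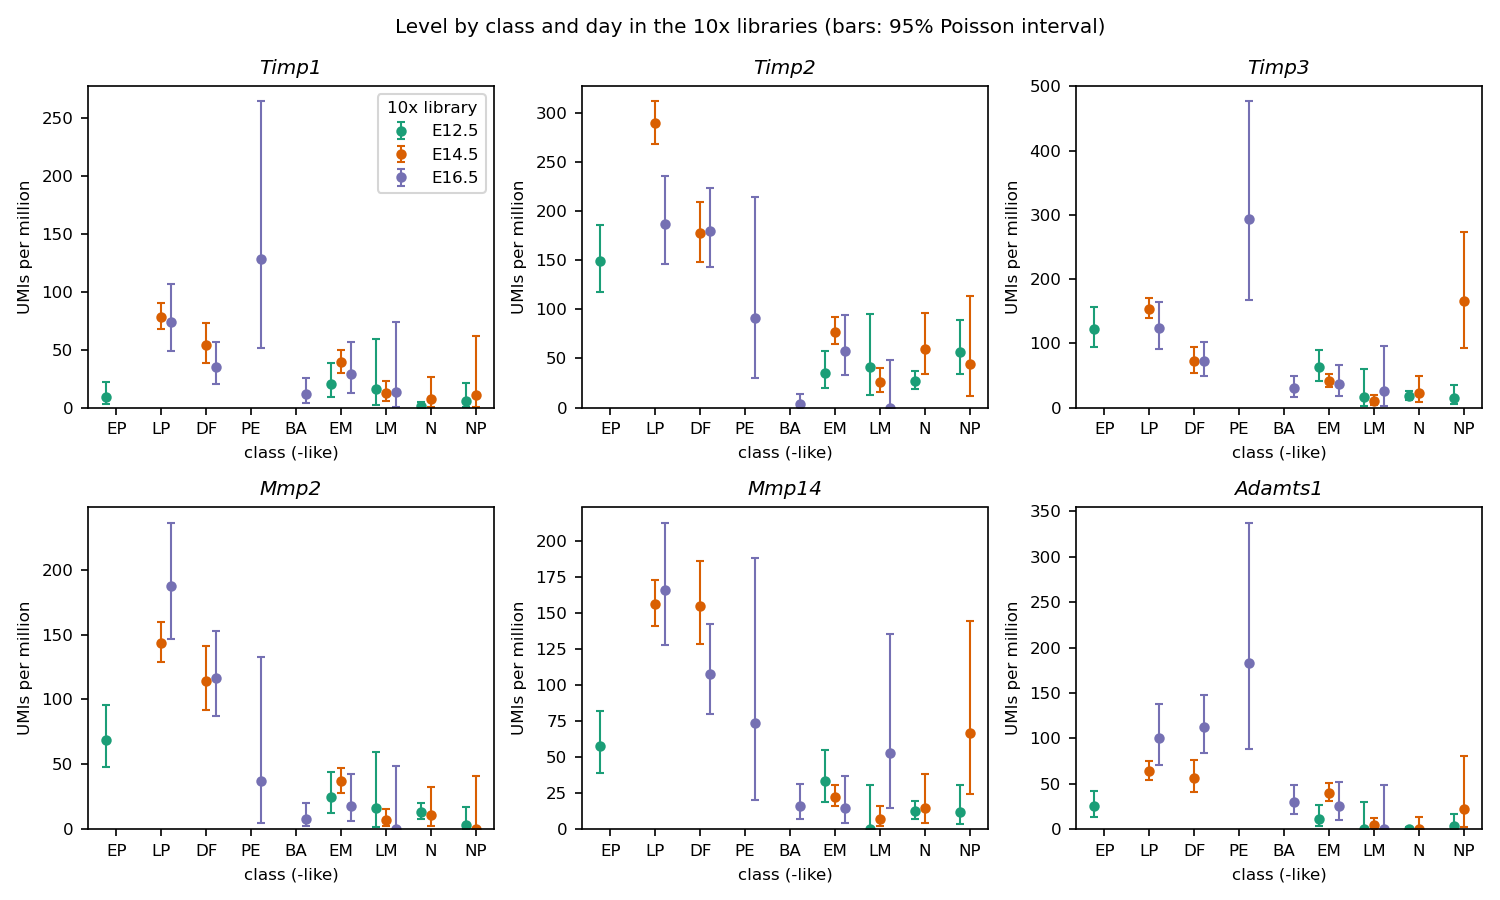
CPM (UMIs scaled to the total of the class and day) for 6 members (panels: Timp1, Timp2, Timp3, Mmp2, Mmp14, Adamts1) in each class and 10x day, with 95% exact Poisson intervals as bars. Timp2, Mmp2 and Mmp14 sit highest in LP-like and DF-like cells at E14.5 and E16.5, and Timp1 is lower in EP-like cells of E12.5 than in LP-like cells of the later days.

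Brown adipocyte-like cells were compared with late progenitor-like cells only within the 10x library of E16.5, with no replicate and so no test. Timp2 had 2 UMIs in BA-like cells beside 71 of the LP-like cells, a ratio of 0.0212 per UMI (95% interval 0.00252 to 0.0795, counting error only). Mmp2 had a ratio of 0.0424, Mmp14 of 0.0956, Timp1 of 0.161, Timp3 of 0.240 and Adamts1 of 0.297. All 6 intervals lay below 1, the highest bound being 0.553 for Adamts1. The intervals for Adam10 (0.564, 0.210 to 1.46) and Mmp19 (2.13, 0.802 to 6.61) included 1. Adam11, a member without protease activity known mainly from the nervous system, had 26 UMIs in BA-like cells and none (0) in the LP-like class. The lower bound of its 95% interval was a ratio of 4.94. With 3 counts set in place of 0, the ratio was 6.52. The 3 UMIs of Mmp28 over all 10x classes were in BA-like cells.

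Late progenitor-like cells (10x and Smart-seq2, E14.5 and E16.5) had more of many members than early progenitor-like cells (E12.5). Of 53 members tested, 17 were higher and 0 lower, where 5.46% and 1.07% of all genes tested were called (edgeR quasi-likelihood test, adjusted p under 0.05). The members' median log2 fold change was 1.77, beside 0.12 over all genes, and 31 members had an unadjusted p under 0.05. These classes share no pool, so class and day cannot be told apart. Markers of other cells moved too. On 10x, 6 tendon genes summed to 619.6 CPM in EP-like and 1170 and 1160 CPM in LP-like cells of E14.5 and E16.5 (0, 0 and 2 genes at 0), and 12 early muscle genes to 403.5, 2310 and 2220 CPM (1, 0 and 4 at 0). Their part in the result was not tested.

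Adamts2 was at 3.82 and 16.9 CPM in the EP-like sums of 10x and Smart-seq2 and at 37, 58, 156.8 and 96.4 CPM in the LP-like sums of 10x E14.5, 10x E16.5, Smart-seq2 E14.5 and Smart-seq2 E16.5. Every LP-like sum lay above both EP-like sums, with a log2 fold change of 3.42 (SE 0.48, adjusted p = 0.0014). Timp1 had 9.56 and 17.3 CPM in EP-like and 78.6, 73.8, 24.8 and 73 CPM in LP-like sums (2.45, SE 0.59, adjusted p = 0.024). The groups did not overlap for Timp1 either. Mmp2 had 68.8 and 499.7 CPM in EP-like and 143.6, 187.2, 836.4 and 751.6 CPM in LP-like sums, higher on each platform (1.34, SE 0.37, adjusted p = 0.048). Adam12, an adhesion-linked protease of muscle and fat precursors, was 7.65 and 7.65 CPM against 22.6, 87, 64.7 and 46.6 CPM (3.21, adjusted p = 0.0066), again without overlap.

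Among called members, other large log2 fold changes were 7.69 for Adamtsl5, 6.87 for Adamts5, 6.80 for Mmp23, 5.02 for Mmp19, 4.04 for Adamtsl3 and 3.36 for Adamts14, against at most 4.44 CPM in an EP-like sum. The sizes of the first 2 rest on Smart-seq2. Adamts5 was 0.26 CPM in EP-like and 42.8 and 39.8 CPM in LP-like cells there. On 10x it was 3.82 CPM (2 UMIs) against 7.82 and 31.6 CPM. Adamtsl5 had 0 UMIs in EP-like and 4 and 1 UMIs in LP-like cells on 10x. With 6 counts in the EP-like Smart-seq2 sum, Adamtsl5 passed the low-count filter through LP-like sums alone and could only be called higher. By role, the called members were 4 Adam genes (Adam9, Adam12, Adam15 and Adam33), 3 proteoglycan-cutting Adamts genes (Adamts1, Adamts5 and Adamts15), both Adamts2 and Adamts14 of the procollagen group, Adamts12, Adamtsl3 and Adamtsl5, 4 Mmp genes (Mmp2, Mmp14, Mmp19 and Mmp23) and Timp1. The other inhibitors did not pass, with 1.09 for Timp2 (adjusted p = 0.11), 0.76 for Timp3 (0.24) and 5.01 for Timp4 (0.11). With total counts as the scale 8 members were higher, where the median over all genes tested was -0.29. Without the Smart-seq2 E12.5 pool only the 10x EP-like sum was left. The calls of members and of all other genes alike were then lost, so this loss is not particular to the members.

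Dermal fibroblast-like and late progenitor-like cells, were compared within 4 pools. Of 51 members tested, DF-like cells had 7 higher and 11 lower, beside 5.84% and 8.11% of all genes tested (median log2 fold change -0.39, and -0.05 over all genes; 29 members at unadjusted p under 0.05). Of 3 procollagen enzymes, Adamts2 and Adamts14 were higher. Of 4 inhibitors, Timp1 and Timp3 were lower, as were 4 Adam genes, Adam12 among them, and Mmp2.

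In the pools 10x E14.5, 10x E16.5, Smart-seq2 E14.5 and Smart-seq2 E16.5, Adamts2 had 53.9, 96.7, 301.3 and 165.1 CPM in DF-like cells and 37, 58, 156.8 and 96.4 CPM in LP-like cells. It was higher in DF-like cells of all 4 pools (log2 fold change 0.73, SE 0.16, adjusted p = 0.014). Adamts14 had 3.94, 17.6, 118.7 and 85.7 CPM against 2.06, 13.2, 26.6 and 35.1 CPM (1.48, adjusted p = 0.013), also higher in each pool. The other higher members were Mmp27 at 5.76, Adamts20, whose product cuts the proteoglycan versican, at 3.96, Adamtsl5 at 1.93, Mmp11 at 1.28 and Adam22 at 1.00. Mmp27 was scarce, with 1 and 2 UMIs in DF-like and 0 in LP-like cells on 10x. Its LP-like Smart-seq2 sums held 11 and 5 counts, so it passed the low-count filter through DF-like sums alone and could only be called higher.

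Adam12 had 1.31, 11, 2.42 and 1.82 CPM in DF-like and 22.6, 87, 64.7 and 46.6 CPM in LP-like cells, lower in every pool without overlap (log2 fold change -4.43, SE 0.36, adjusted p = 4e-05). Adamtsl3 was 0, 0, 0 and 0.608 CPM in DF-like and 10.7, 15.8, 30.5 and 76.4 CPM in LP-like cells (-8.09, adjusted p = 0.00015). Adamtsl3 passed the low-count filter through LP-like sums and could only be called lower. Neither gene exceeded 11 CPM in a DF-like sum. Timp3 had 72.3, 72.5, 48.1 and 170.03 CPM in DF-like and 153.9, 123.9, 293.7 and 262.9 CPM in LP-like cells (-1.37, SE 0.30, adjusted p = 0.013).

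Timp1 had 53.9, 35.2, 15.3 and 33.1 CPM in DF-like and 78.6, 73.8, 24.8 and 73 CPM in LP-like cells (log2 fold change -0.90, SE 0.20, adjusted p = 0.013). Both inhibitors were lower in DF-like cells of all 4 pools, though the ranges overlapped. Also lower were Adamts16 at -9.29 and Adamtsl2 at -8.36, each with 4 counts in DF-like cells, Adamts15 at -2.66, Adam23 at -2.41, Adam19 at -1.54, Adam15 at -1.43 and Mmp2 at -0.59. Adamts16 and Adamtsl2 passed the low-count filter through LP-like sums alone and could only be called lower. Timp2 (-0.44, adjusted p = 0.11) and Timp4 (-3.42, adjusted p = 0.23) did not pass. The calls of Adamts16, Adamtsl2, Timp1, Adam22 and Adam23 were lost when members were allowed into the clustering or the mitochondrial limit was off. Summed tendon genes were higher in LP-like than in DF-like cells of 10x E14.5 (1170 against 840.9 CPM) and lower in those of E16.5 (1160 against 1300), and their part in the result was not tested.

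**Figure D3:**
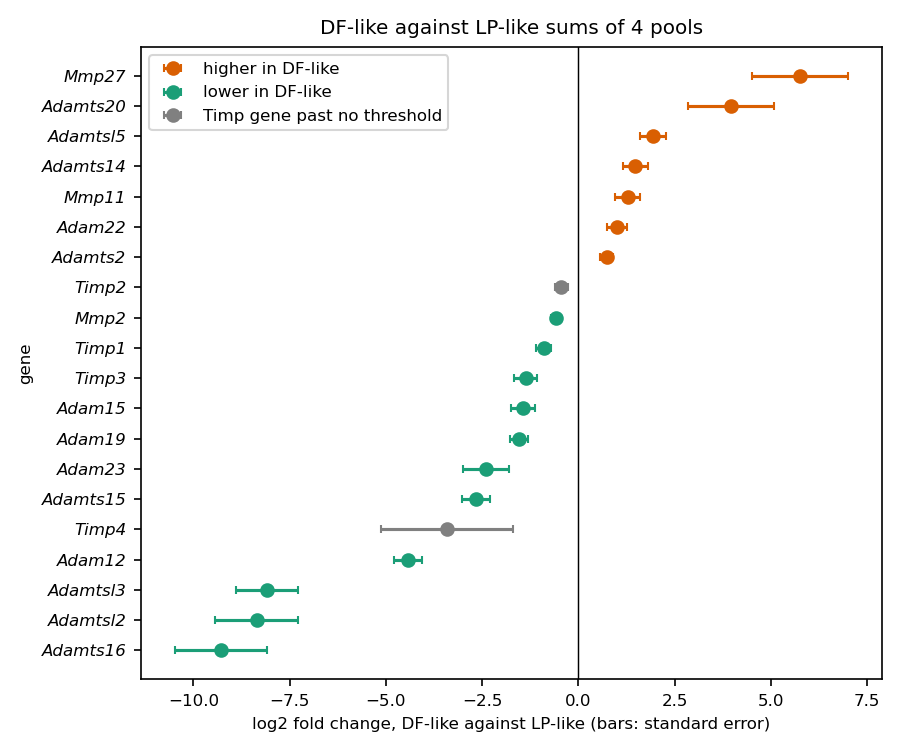
Log2 fold change of DF-like against LP-like cells (points, with bars of 1 SE) for the 18 members called and for Timp2 and Timp4, which were not. Values run from -9.29 for Adamts16 to 5.76 for Mmp27, each with few counts in the class where it was lower. Timp1 and Timp3 lie below 0.

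Early muscle-like cells had less of most members than late progenitor-like cells. Of 48 members tested, 33 were lower and 1 higher, beside 20% and 15.6% of all genes tested (median log2 fold change -1.79, and -0.12 over all genes; 36 members at unadjusted p under 0.05). In the same pool order as above, Timp2 had 77.2, 58, 30.9 and 40.9 CPM in EM-like and 289.8, 187.2, 151.3 and 84.7 CPM in LP-like cells (-1.75, SE 0.20, adjusted p = 8.9e-05). The groups did not overlap. Timp3 (-1.40, adjusted p = 0.00029) and Timp1 (-0.65, adjusted p = 0.034) were lower too, while Timp4 was not called (0.90, adjusted p = 0.25).

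The lower members held all 5 Adamtsl genes, Adamts2 and Adamts3, Mmp2 (-2.21), Mmp14 (-2.41) and 7 Adam genes. Adamts16 was at 0 in every EM-like sum and at 3.29, 5.27, 59.4 and 10.3 CPM in LP-like sums, with 8 and 2 UMIs behind the 10x values. Adamts3 was also at 0 in EM-like sums, beside 0.823, 2.64, 11 and 9.92 CPM in LP-like sums, with 2 and 1 UMIs on 10x. Adamts16 and Adamts3 passed the low-count filter through LP-like sums alone and could only be called lower. Adam33 changed by -8.44, Mmp23 by -7.11, Adamtsl2 by -6.80 and Adamtsl1 by -6.53. Adamtsl3 had 1 count in EM-like cells and Adamtsl5 had 2, so these too passed the filter through LP-like sums and could only be called lower. The single higher member was Adamts8, an aggrecan-cutting enzyme, at 7.24, 7.25, 26.5 and 54.2 CPM in EM-like and 2.06, 2.64, 7.23 and 8.14 CPM in LP-like cells (2.13, SE 0.39, adjusted p = 0.0017), higher in each pool.

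Late muscle-like cells, named from contractile and fusion genes, were compared with early muscle-like cells in 5 pools. Only 14 members passed the filter on low counts, which left out 43, and of these 7 were lower and 1 higher than in EM-like cells, beside 15.1% and 11.9% of all genes tested. The median log2 fold change was -1.37, and -0.01 over all genes, with 9 members at unadjusted p under 0.05. Mmp2 had 16.4, 6.78, 0, 6.96 and 0.284 CPM in LM-like cells (10x on the 3 days in order, then Smart-seq2 E14.5 and E16.5) and 24.5, 36.8, 18.1, 276.01 and 122.9 CPM in EM-like cells (-5.78, SE 0.70, adjusted p = 2.3e-06). It was lower in each pool.

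Timp3 (-2.34), Timp1 (-1.95), Timp2 (-1.51), Mmp11 (-3.10), Adamts1 (-2.47) and Mmp14 (-1.44) were also lower in LM-like cells, with adjusted p from 8.6e-07 to 0.012. Adam12, linked to myoblast fusion, went the other way, with 16.4, 12.2, 26.5, 28.5 and 12.2 CPM in LM-like cells and 4.46, 2.41, 0, 1.30 and 1.72 CPM in EM-like cells of the same pools. It was higher in each pool without overlap (3.40, SE 0.63, adjusted p = 0.00034), and lost the call without either Smart-seq2 pool.

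Neuron-like cells were compared with early muscle-like cells in 4 pools. Of 40 members tested, 6 were higher and 9 lower, shares near the background of 15.1% and 17.6% of all genes tested (median log2 fold change -1.05, and -0.10 over all genes; 19 members at unadjusted p under 0.05). Mmp24 had 14.9 and 29.7 CPM in N-like cells of 10x E12.5 and E14.5 and 22.3 and 43.7 CPM in Smart-seq2 of the same days, and 0 in every EM-like sum. It passed the low-count filter through N-like sums alone and could only be called higher. Of 5 membrane-type Mmp genes tested, Mmp24, Mmp16 (1.77, adjusted p = 0.023) and Mmp15 (1.54, adjusted p = 0.047) were higher, Mmp14 was lower and Mmp17 was not called. Also higher were Adamtsl1 (3.81) and the protease-inactive Adam22 (3.30) and Adam23 (2.42), which act as neuronal receptors.

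The members lower in N-like cells were Adamts1 (-9.21), Timp1 (-7.18), Adamts12 (-6.38), Adamts8 (-4.50), Timp3 (-4.16), Mmp2 (-2.53), Mmp14 (-2.51), Mmp11 (-1.86) and Adam17 (-1.80). Timp3 had 17.6, 22.3, 4.75 and 3.24 CPM in N-like and 62.4, 41, 278.7 and 111.8 CPM in EM-like sums, apart in every pool. Timp2 (-1.72, adjusted p = 0.17) and Timp4 (-2.58, adjusted p = 0.13) did not pass. Leaving out the Smart-seq2 E12.5 or E14.5 pool left 4 lower members, and leaving out 10x E14.5 left 3 higher.

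Within early muscle-like cells, E16.5 was compared with E12.5 over 40 members, of which 5 were higher and 4 lower, beside 5.40% and 4.60% of all genes tested (median log2 fold change -0.58, and 0.01 over all genes; 11 members at unadjusted p under 0.05). Adamts8 had 2.23, 7.24 and 7.25 CPM over the 3 days in order on 10x and 0.379, 26.5 and 54.2 CPM on Smart-seq2 (6.88, SE 0.97, adjusted p = 2.9e-10). Adamts14 had 0, 4.22 and 18.1 CPM and 4.31, 26.3 and 70.4 CPM (4.45, SE 0.74, adjusted p = 1.5e-07). For both genes each E16.5 sum lay above both E12.5 sums.

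Timp1 had 20.1, 39.2 and 29 CPM on 10x and 15.2, 19.4 and 58.9 CPM on Smart-seq2 (log2 fold change 1.87, SE 0.51, adjusted p = 0.0044), and Adamts4 (2.92) and Adamts1 (1.75) were higher too. Lower were Adam11 (-6.36), Adamts19 (-5.38), Adamts7 (-1.90) and Adamts15 (-1.84). The other inhibitors did not pass, with -0.12 for Timp2 (adjusted p = 0.92), -0.49 for Timp3 (0.56) and -0.08 for Timp4 (0.98). These calls rest on the Smart-seq2 pools and were lost without Smart-seq2 E12.5 or E16.5. Such fits leave only the 10x sum of that day, and most calls over all genes were lost there too. EM-like cells of E12.5 and of 10x E16.5 were mostly in a different cluster from those of E14.5 and Smart-seq2 E16.5.

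In the bulk libraries, sorted Cd36+ cells had far less of the system than sorted Pdgfra+ cells, and their markers matched the sorts. Pdgfra was 128.9 to 227.7 CPM in Pdgfra+ and 3.64 to 4.55 CPM in Cd36+ libraries, Cd36 24.8 to 130.9 and 683.7 to 909.9 CPM, and Fabp4, an adipocyte fatty acid carrier, 14.8 to 93.2 and 2130 to 2760 CPM. In bulk, fewer cells of a type and less RNA per cell cannot be told apart. Of 64 members tested, 35 were lower and 2 higher in Cd36+ cells, beside 18% and 13.8% of all genes tested (median log2 fold change -2.33, and -0.05 over all genes; 42 members at unadjusted p under 0.05).

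Timp2 had 50, 54.8, 43.3 and 38.4 CPM in the Pdgfra+ libraries and 1.45 and 0.986 CPM in the Cd36+ libraries (log2 fold change -5.25, SE 0.62, adjusted p = 3.1e-05). Timp1 had 31.4, 45.7, 28.6 and 37.3 CPM against 3.1 and 2.75 CPM (-3.61, SE 0.88, adjusted p = 0.0056). Both inhibitors were apart between the sorts. Mmp2 had 288.6, 293.4, 161.9 and 257.3 CPM against 7.80 and 8.19 CPM (-4.97, SE 1.02, adjusted p = 0.0019), and Mmp14, named after its values were seen, had 66.4, 89.4, 66.7 and 78.4 CPM against 8.56 and 7.41 CPM (-3.24). Timp3 had 136.1, 169.2, 148.9 and 185.4 CPM against 66 and 42.9 CPM. Its ranges were apart but it did not pass (-1.55, adjusted p = 0.21), and it passed when the 2 sets of column names were fitted as a term (adjusted p = 1.3e-07). In that fit 4582 genes were higher and 4753 lower of all 17586 tested, far more than without the term. Without the term, Timp4 was not called (1.13, adjusted p = 0.32).

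The largest falls beside these were Mmp16 (-5.52), Adamts14 (-5.47), Adamts16 (-5.11), Adamts5 (-4.98), Adamtsl5 (-4.90) and Adamts4 (-4.67), and the procollagen enzymes Adamts2, Adamts3 and Adamts14 were all lower. Adam11 went the other way, with 94.5 and 100.8 CPM in Cd36+ and 1.49, 2.92, 2.41 and 2.99 CPM in Pdgfra+ libraries (5.31, SE 0.54, adjusted p = 1e-05). Mmp28 had 12.8 and 13.7 CPM against 0.439, 1.15, 0.0554 and 1.06 CPM (4.27, SE 0.84, adjusted p = 0.0015). Neither gene overlapped between the sorts. Per kb of exon, Adam11 was the highest member in Cd36+ cells, with a mean of 17.2 CPM per kb, ahead of Adamts1 at 14.6. In Pdgfra+ cells Mmp2 was highest at 74.3 CPM per kb, ahead of Adamts1 at 62.2 and Timp1 at 40.2.

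Some members differed between the Pdgfra+ libraries themselves. Mmp27 had 7.17 and 6.92 CPM in 2 of them and 0.0688 and 0.0440 CPM in the others, Adamts20 had 13.1 and 8.67 CPM against 1.17 and 0.330 CPM, and Adamtsl3 had 0.773 and 3.07 CPM against 38.3 and 47.2 CPM. The pairs followed the sets of column names, whose Thy1 sort was not read here.

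Pdgfra+ cells grown in DMEM (E14.5) had more members lower than higher against sorted Pdgfra+ cells (E16.5). By the labels' days, day and culture cannot be told apart. If the Thy1- sort was of E14.5, as the study's results text has it, this holds for the Thy1+ sort alone. Of 64 members tested, 30 were lower and 5 higher, beside 33.6% and 20.2% of all genes tested (median log2 fold change -1.11, and -0.31 over all genes; 39 members at unadjusted p under 0.05). These counts moved with the scale. Sorted Pdgfra+ libraries had TMM factors of 2.09 to 2.15 and DMEM libraries 0.772 to 0.878. With total counts as the scale 1 member was higher and 52 lower, and the median over all genes was -1.64. Of all 17586 genes tested, 713 were then higher and 11694 lower.

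Timp3 had 136.1, 169.2, 148.9 and 185.4 CPM in sorted libraries and 1020 to 2680 CPM (median 1840) in DMEM (log2 fold change 3.54, SE 0.74, adjusted p = 0.00082), and it kept its call with total counts. Timp3 was the most abundant member per kb in DMEM, at a mean of 228.2 CPM per kb, beside 19.6 in sorted cells. Timp1 had 31.4, 45.7, 28.6 and 37.3 CPM in sorted libraries and 62 to 159.7 CPM (median 114.6) in DMEM (1.67, SE 0.57, adjusted p = 0.020). It did not overlap, but with total counts its change was 0.34 (adjusted p = 0.67).

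Adamts5 had 41.9, 28.7, 31.9 and 19.9 CPM in sorted libraries and 94.1 to 195.9 CPM (median 134.2) in DMEM (2.18, adjusted p = 0.00048). Adam15 (1.75, adjusted p = 0.0018) and the sheddase Adam9 (1.43, adjusted p = 0.00031) were the other higher members. Adamts5, Adam15 and Adam9 lost their calls with total counts, with changes of 0.83, 0.41 and 0.09. Timp2 was not called (0.37, adjusted p = 0.38) and changed sign with total counts, to -0.97, and Timp4 was not called (-1.51, adjusted p = 0.069). With the sets of column names as a term both passed, Timp2 at 0.34 (adjusted p = 0.02) and Timp4 at -1.54 (adjusted p = 0.015). In that fit 5102 genes were higher and 7340 lower of all 17586 tested, so passing says little about these members.

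Lower members included several that were at 0 in every DMEM library. Adam30, Adam1b and Mmp24 were at 0 in every ADM library too. They passed the low-count filter through sorted libraries alone and could only be called lower, so the direction of their calls was fixed beforehand. Adam30 had 5.78, 4.59, 3.32 and 2.60 CPM in sorted libraries and 0 in DMEM. With 3 counts set in place of 0, Adam30 was 176.8-fold, Adam1b 37.7-fold and Mmp24 13.6-fold lower. Adamts8 had 2 counts in DMEM (ratio to sorted cells 0.00834, interval 0.00101 to 0.0303), and Mmp21 had 1. Adamts8 and Mmp21 also passed the filter through sorted libraries alone and could only be called lower. Mmp27 changed by -5.56, Adamts19 by -4.97 and Adamts20 by -4.34. Mmp27 and Adamts19 too passed the filter through sorted libraries alone. The falls of Mmp27 and Adamts20 rest largely on the first set of column names. In the other set, sorted libraries had 0.0688 and 0.0440 CPM of Mmp27, beside at most 0.277 CPM in a DMEM library. For Adamts20 they had 1.17 and 0.330 CPM, beside at most 0.707 CPM in a DMEM library. The procollagen enzymes Adamts2, Adamts3 and Adamts14 and the cartilage-matrix enzymes Adamts7 and Adamts12 were all lower.

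Summed markers of other cells moved with the culture, though not every gene of a list did. Summed pericyte genes, contractile Acta2 among them, were 13300 to 24500 CPM in DMEM and 191.7 to 355.4 CPM in sorted Pdgfra+ libraries. Yet of these 12 genes, 5 had a mean over 10 CPM in DMEM and 8 in sorted libraries, so few genes carry the sum. For the 11 neural progenitor genes it was 3 in both groups. Summed neural progenitor genes were 6390 to 9250 CPM and 124.1 to 642.8 CPM, and red cell genes were 257.3 to 453.8 CPM in sorted and 0.0601 to 0.656 CPM in DMEM libraries. Their part in the result was not tested.

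ADM differed from DMEM in fewer members. Of 64 tested, 1 was higher and 9 lower, beside 5.21% and 3.94% of all genes tested (median log2 fold change -0.39, and -0.02 over all genes; 21 members at unadjusted p under 0.05). Mmp2 had 274.4 to 509.7 CPM (median 415.2) in DMEM and 13.3 to 162.4 CPM (median 40.4) in ADM (-2.50, SE 0.54, adjusted p = 0.014). The media did not overlap for Mmp2. Adamts17 had 1.36 to 6.20 CPM (median 1.98) in DMEM and 0 to 1.23 CPM (median 0.103) in ADM (-2.58, SE 0.60, adjusted p = 0.018), and Adam19 had 16.1 to 36.3 CPM (median 20.6) and 6.26 to 12.6 CPM (median 10.9) (-1.24, SE 0.32, adjusted p = 0.026). Neither overlapped.

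Adamts16 (-2.26), Adamts15 (-1.69), Adamts3 (-1.67), Adamts7 (-1.42), Adamts14 (-1.23) and Adamts2 (-0.85) were the other lower members, so all 3 procollagen enzymes fell. Adam12 was the higher member, with 6.96 to 14.3 CPM (median 9.81) in DMEM and 11.8 to 42.6 CPM (median 22.5) in ADM (1.27, SE 0.37, adjusted p = 0.043), with overlap. With total counts it was 0.64 (adjusted p = 0.20). No inhibitor passed, with -0.38 for Timp1 (adjusted p = 0.66), -0.59 for Timp2 (0.23), -0.75 for Timp3 (0.43) and 1.65 for Timp4 (0.14).

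The spread within ADM was wide and followed the sets of column names. Timp3 had 237.4, 198.3 and 174.1 CPM in the ADM libraries of the first set and 1900, 1910 and 2190 CPM in the others, and Timp1 had 33.6, 18.8 and 20.5 CPM and 155.2, 138.9 and 156.3 CPM. Adam12 went the other way, with 42.6, 30.6 and 36.3 CPM in the first set and a mean of 13.1 CPM in the others, all of which lay below those 3. With set as a term, chosen after the data were seen, 3 members were higher and 29 lower. In that fit 2648 genes were higher and 3559 lower of all 17586 tested, far more than without the term. Timp1 (-0.82, adjusted p = 5.3e-06), Timp2 (-0.76, adjusted p = 2.9e-05) and Timp3 (-1.44, adjusted p = 1e-09) passed as lower and Timp4 (1.72, adjusted p = 0.031) as higher. Adipocyte genes also varied inside each medium, with Fabp4 at 0.166 to 11100 CPM in DMEM and 1840 to 95000 CPM in ADM and 12 brown adipocyte markers summing to 97.2 to 36800 CPM and 2340 to 170000 CPM. Their part in the results was not tested.

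**Figure D4:**
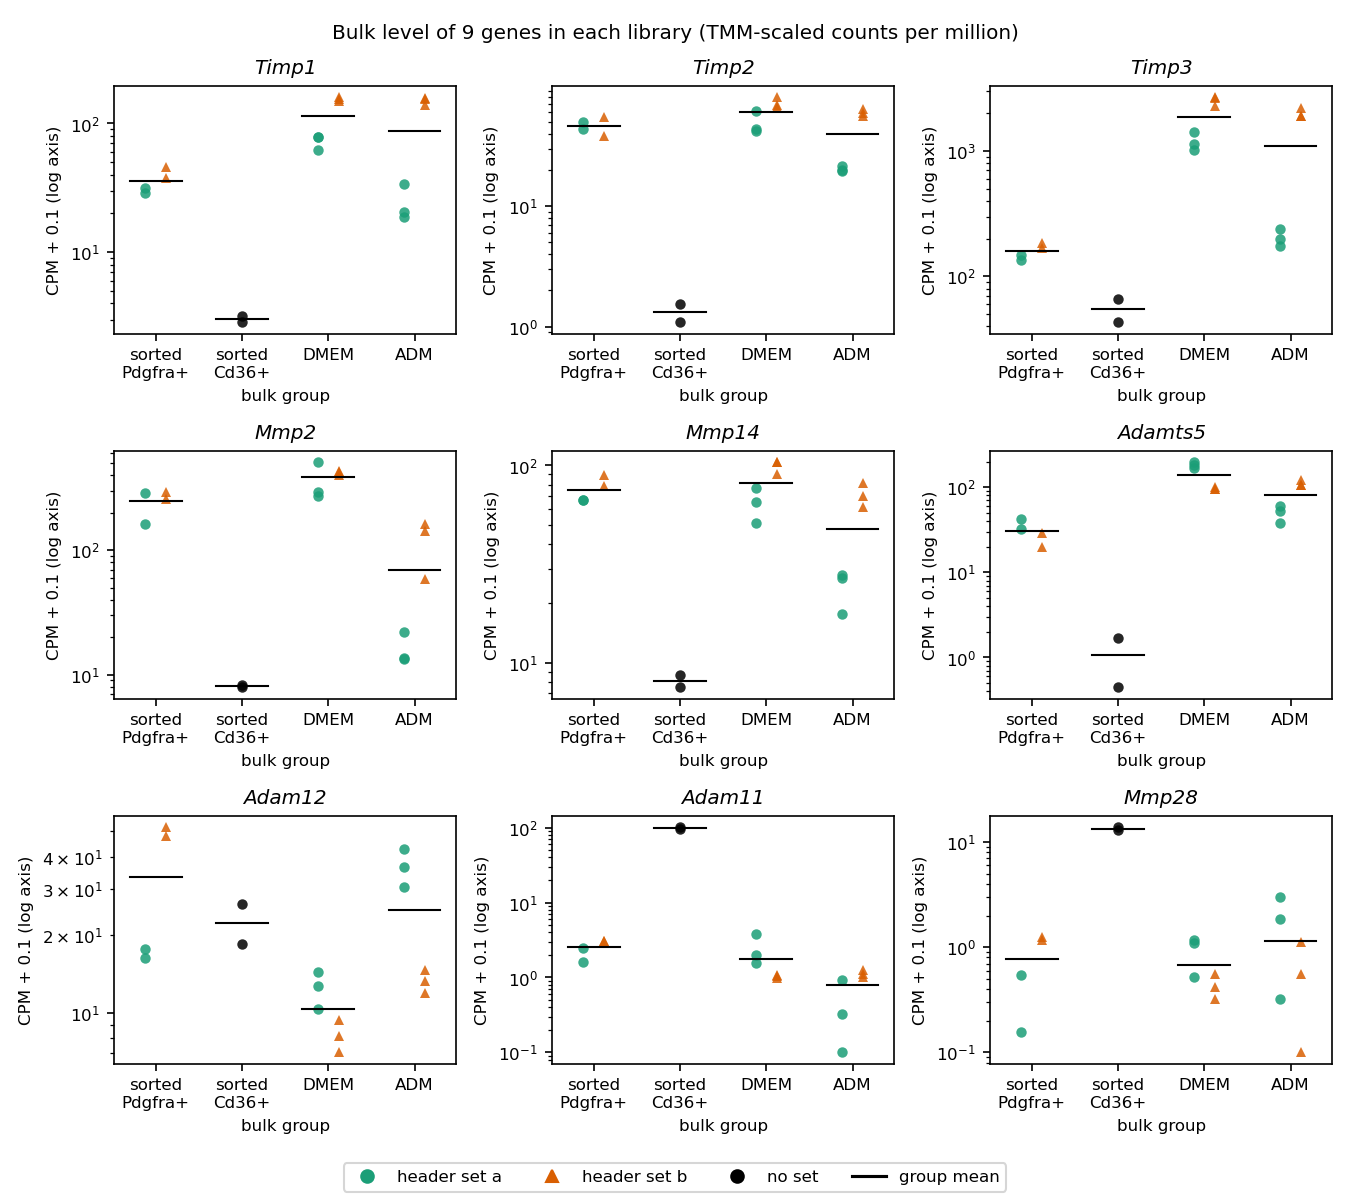
TMM-scaled CPM + 0.1 on a log axis for 9 members (panels) in sorted Pdgfra+, sorted Cd36+, DMEM and ADM libraries, with 1 point per library, colours for the 2 sets of column names and a line at each group mean. Timp2 and Mmp2 are low in Cd36+ libraries where Adam11 and Mmp28 are high, Timp3 is highest in DMEM, and the ADM libraries split into 2 sets.

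Other genes of the extracellular protease system, a list of 46 that are no members, were set beside these results. In LP-like against EP-like cells 18 of 43 tested were higher and 0 lower, beside 5.46% and 1.07% of all genes tested. The serine proteases Htra1 and Htra3 were at 9.49 and 6.89. In DF-like against LP-like cells 5 were higher and 14 lower of 40, beside 5.84% and 8.11% of all genes. Among them were Fap, fibroblast activation protein, at -5.20 and Plat, tissue plasminogen activator, at -3.52. EM-like against LP-like cells gave 2 higher and 29 lower of 42, beside 15.6% and 20% of all genes, with cathepsin K (Ctsk) at -9.23.

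In LM-like against EM-like cells 3 of 20 were higher and 10 lower, beside 11.9% and 15.1% of all genes. Lox, a collagen cross-linking enzyme, was at -6.11. N-like against EM-like cells gave 4 higher and 12 lower of 36, beside 15.1% and 17.6% of all genes. EM-like cells of E16.5 against E12.5 gave 4 higher and 3 lower of 40, beside 5.40% and 4.60%, with Htra3 at 6.21. In bulk, Cd36+ against Pdgfra+ cells gave 1 higher and 30 lower of 46 (Dpp4 at -5.55), beside 13.8% and 18% of all genes. DMEM against sorted cells gave 13 higher and 17 lower of 46 (Dpp4 at -6.12), beside 20.2% and 33.6%. ADM against DMEM gave 3 higher and 5 lower of 46, beside 5.21% and 3.94%, with Htra1 at -3.28 and Bsg, an inducer of Mmp genes, at 2.70.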

How the data were processed

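Single cells (10x and Smart-seq2) and bulk libraries of Pax7-lineage embryonic cells were analysed. The authors made the 10x UMI counts with Cell Ranger on GRCm38 and deposited them unnormalized. They deposited Smart-seq2 expected counts from kallisto 0.44.0 and tximport, and bulk counts per gene, whose aligner is not given in the sources used here. Cells over 8% mitochondrial counts were left out (64). Limits of 4000 genes for Smart-seq2 and 15000 UMIs for 10x removed no further cell. Scrublet in Scanpy 1.11.5 marked 23 doublets (0.745% to 0.830% per 10x library), which were kept, and removed in an alternative. Cells were clustered in Seurat 5.3.0 (R 4.3.3) with 2000 variable genes and 30 principal components at resolution 0.8, leaving the members out. Classes are called X-like, since their names were rebuilt from markers and not taken from the authors.

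Counts per class and pool (at least 20 cells, expected counts rounded after summing) and bulk counts were tested with edgeR 4.0.16 quasi-likelihood fits, TMM scaling, its low-count filter and Benjamini-Hochberg adjustment over all genes tested, at adjusted p under 0.05. Pool was a block, except platform as a term where classes share no pool and for the comparison of days. CPM in bulk use TMM-scaled totals. Intervals are 95% exact Poisson or conditional binomial, from SciPy 1.17.1, and cover counting error only. DESeq2 1.42.0 and other settings were alternatives. Scripts were run on counts simulated for the same designs with known changes. Of 2-fold changes, 0% (Cd36+ against Pdgfra+, N-like against EM-like) to 51% (LM-like against EM-like) were called. Of 4-fold changes, 19% (N-like against EM-like) to 83% (LM-like against EM-like) were. False calls were 3 of 50 for EM-like E16.5 against E12.5 and 11 of 47 for LP-like against EP-like, the lowest and highest shares. A member not called can thus still differ.

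The bulk headers gave no Thy1 sort. Each such column was entered under 1 of its possible samples as a placeholder, no result uses the sort, and swapping sorts changes none. The 4 bulk groups and 3 contrasts were set after the headers were seen, in place of planned contrasts between and within the Thy1 sorts, which were not run. Total counts as the scale and the set of column names as a term were also chosen after seeing the data. Replicate numbers did not pair the libraries: correlations of same-numbered deviations were -0.006, -0.011 and -0.001 for ADM and DMEM.

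Named genes are the 4 Timp genes, up to 8 called members per direction by fold change, and in each 10x class up to 5 members by level and 5 by ratio to the next class with at least 20 UMIs. Others were named after their values were seen. Members and lists were chosen with earlier results of these data known.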

Additional observations from a re-analysis of the deposited data

Results flagged for a closer look

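In 3 of 60 gene-and-group values of the bulk libraries, 1 library stood apart from the others of its group by Dixon's test, and chance flags about 1 in 20 groups. Adamts3 was 2.54 CPM in DMEM library 1b, above 0.901 to 1.48 CPM in the other DMEM libraries. Mmp21 was 0.0552 CPM in DMEM library 1b, where the others were at 0. Mmp27 was 0.277 CPM in DMEM library 2b, above 0 to 0.0689 CPM in the others. Sums of single cells were not checked this way, since each class has at most 3 pools per platform. Of 56 named single-cell results checked for pools that move in opposite directions by day, 0 did.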

How the results depend on the processing

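Leaving out each library or pool also moved the calls over all genes tested. For ADM against DMEM they were 917 higher and 693 lower of 17586 with all libraries, and 1734 and 1062 of 17551 without ADM 1b. For N-like against EM-like they were 1856 and 2162 of 12304, and 1115 and 924 of 9734 without Smart-seq2 E14.5. Fits that leave 1 sum or library on a side say little about the members. Member counts had these ranges. ADM against DMEM had 0 to 1 higher and 2 to 13 lower (2 without ADM 1a or 2a, 4 without ADM 3a or DMEM 3a, 1b or 3b, 5 without DMEM 2b, 13 without ADM 1b). DMEM against sorted cells had 4 to 6 higher and 24 to 29 lower, and Cd36+ against Pdgfra+ cells 2 to 2 higher and 20 to 36 lower (20 without Cd36+ library 2, 23 without library 1). LP-like against EP-like cells had 0 to 21 higher (0 without Smart-seq2 E12.5, 5 without 10x E16.5, 8 without 10x E12.5, 11 without 10x E14.5) and 0 to 1 lower. DF-like against LP-like cells had 3 to 6 higher (3 and 4 without 10x E14.5 and E16.5) and 7 to 10 lower (7 without either), and EM-like against LP-like cells 1 to 2 higher and 24 to 32 lower. LM-like against EM-like cells had 0 to 1 higher (0 without Smart-seq2 E14.5 or E16.5) and 5 to 13 lower (13 without 10x E12.5, 12 without either other 10x pool). N-like against EM-like cells had 3 to 5 higher (3 without 10x E14.5) and 4 to 9 lower (4 without Smart-seq2 E12.5 or E14.5, 5 without 10x E14.5). EM-like E16.5 against E12.5 had 0 to 5 higher and 0 to 4 lower (0 of each without Smart-seq2 E12.5 or E16.5, 3 higher and 1 lower without 10x E12.5).

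Other settings moved these counts by over 1.5 times, and the cause was not tested. For ADM against DMEM, higher members were 2 with DESeq2, 0 with no filter, 0 with total counts and 3 with the set as a term, and lower members 3 with only the groups compared and 29 with the set. With the set, 2648 genes were higher and 3559 lower of all 17586 tested. The replicate block, fitted although the numbers pair no libraries, gave 0 higher and 1 lower. DMEM against sorted cells gave 1 higher and 52 lower with total counts and 9 higher with the set. All genes tested gave 713 higher and 11694 lower with total counts and 5102 higher with the set. LP-like against EP-like gave 8 higher with total counts. With 10x sums only, LP-like against EP-like gave 0 higher, DF-like against LP-like 0 higher and 4 lower, EM-like against LP-like 0 higher and 19 lower, LM-like against EM-like 0 higher and 2 lower, and N-like against EM-like 4 lower. The numbers of genes tested and called over all genes fell in each of these too. They were 1368 higher and 1548 lower of 7569 for EM-like against LP-like. For N-like against EM-like they were 1081 and 661 of 8288. DF-like against LP-like gave 7 lower with members in the clustering and 7 with the mitochondrial limit off, beside 857 of 13132 and 838 of 13143 genes tested. EM-like against LP-like gave 2 higher with DESeq2, LM-like against EM-like 2 higher and 14 lower with no filter, and EM-like E16.5 against E12.5 1 lower with DESeq2. The summed Timp level of DF-like cells moved from 297.7 to 375.3 CPM with members in the clustering and to 369.9 CPM with the limit off.

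Direction reversed only in calls that had not passed: in EM-like E16.5 against E12.5 for Timp4 (0.72 with DESeq2, -1.17 to 9.94 without each pool in turn, above 0 without Smart-seq2 E12.5 or E16.5) and Timp2 (-0.82 to 1.31, above 0 without Smart-seq2 E12.5), and in DMEM against sorted cells for Timp2 (-0.97 with total counts). EM-like E16.5 against E12.5 was not run on 10x sums only, which leave 0 residual degrees of freedom. Contrasts that need the Thy1 sort were not run. Shallow 10x libraries and 30 PE-like cells limit the scarce members.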

Other observations

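Adamts1, a proteoglycan-cutting enzyme, had 443.7, 265.3, 349.2 and 259.9 CPM in sorted Pdgfra+ libraries, 156.5 to 229.9 CPM (median 200.5) in DMEM and 44.5 to 254.1 CPM (median 141.5) in ADM. Its DMEM libraries lay below every sorted library, while ADM spanned all of the DMEM range. Of the 69 members, 31 had a mean over 10 CPM in sorted Pdgfra+ cells, 12 in Cd36+ cells, 24 in DMEM and 19 in ADM, and 10 were under 1 CPM in every bulk library.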
